A study of Rattus norvegicus with 6 samples.

Results

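Chemokines are small secreted proteins that steer the movement of leukocytes, and chemokine receptors are the G protein-coupled receptors on the surface of the cells that respond. CXC ligands carrying a Glu-Leu-Arg motif attract neutrophils through Cxcr1 and Cxcr2, many CC ligands attract monocytes and lymphocytes, and Cxcl12 with its receptor Cxcr4 retains and guides cells in many tissues. In tumors, both the cancer cells and the host cells among them can make chemokines, and a bulk tissue measurement does not separate these sources.

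The chemokine ligands and receptors were taken from the expression table by symbol, as every gene named Ccl, Ccr, Cxcl, Cxcr, Xcl or Xcr with a number, together with Cx3cl1 and Cx3cr1. This gave 52 of the 17030 gene symbols, 34 of them ligands and 18 receptors, each on a single row. Ccr2, Ccr8, Cxcl6 and Cxcl15 were not analysed here. All 52 have an entry in RefSeq, 50 under the same symbol. The symbol Cxcl5 is now a synonym of rat Cxcl6 and Cxcr7 is a synonym of Ackr3, and the symbols of the table are kept below.

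The mRNA came from 6 Lobund-Wistar rats that carried a subcutaneous PAIII tumor, a transplantable rat prostate adenocarcinoma line injected into the flank when the rats were 2 months old. Rats A1, A6 and A12 received digitoxin, a cardiac glycoside, at 0.03 mg/kg daily from day 10 (digitoxin replicates 1, 2 and 3). Rats B5, B9 and B14 received vehicle (vehicle replicates 1, 2 and 3), and all tumors were taken on day 40. Each library is 1 tumor, from punches of tissue that looked viable, pooled within the rat. The rats were not a random draw from their groups. They were stratified by serum IL-6 and CINC-1, with digitoxin-treated rats of low and vehicle rats of high serum levels taken forward, and CINC-1 is the protein encoded by Cxcl1. A difference in Cxcl1 between these groups is therefore not independent of how the rats were chosen. The same choice may bear on the other genes compared here, and this was not tested. Groups follow the labels throughout. The group means that the authors tabulated elsewhere for some genes are not those of the deposited columns grouped by these labels, so every direction given for digitoxin holds for the libraries as labelled.

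Levels are given in FPKM, fragments for each kilobase of transcript divided by the mapped fragments of the library, which is a level per length and can be compared between genes. The depth behind each value is unknown, so low values have no known precision and detection limits cannot be given. An entry of exactly 0 can be a failed estimate, since the ribosomal protein mRNA Rps6 was also listed at 0 in A1 on both of its rows. Such entries are reported as listed at 0, and no group mean of FPKM with its SD is given for a gene that has one.

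Tumors A12 and B14 lacked most lung transcripts that the other 4 held. The 11 alveolar lung markers in the table summed to 28276 to 85922 FPKM in A1, A6, B5 and B9, against 41.0 FPKM in A12 and 62.8 FPKM in B14, where 4 and 5 of the 11 were listed at 0. Across genes, A12 and B14 were the most alike pair of libraries (r = 0.985), and genes are not independent replicates. The prostate lineage marker Hoxb13 lay at or below 0.0937 FPKM in every tumor, and Pbsn and Spink3 were listed at 0 in all of them. Of the same list, Tmprss2 was at 7.69 to 34.1 FPKM and Acpp at 2.33 to 6.28 FPKM. The 5 epithelial markers were at 1 FPKM or more in every tumor. A6 had the highest alveolar sum and the lowest sum of the 5 markers of dividing cells, 28.7 FPKM against 215 to 441 FPKM in the other tumors. For chemokines and receptors whose fold change is given below, the value without A12 and B14 stands beside it or is grouped near the end. In bulk tissue, fewer cells of a type cannot be told apart from less RNA per cell.

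Several of the ligands sit side by side in the genome. In the positions the table gives for chromosome 14, the consecutive rows are Cxcl2, Cxcl1, Cxcl3, Pf4, Ppbp and Cxcl5, all of them CXC chemokines. The 250 bases before the RefSeq start of Cxcl1, Cxcl2 and Cxcl5 are shown because these related neighbours differed in how much their levels varied between tumors, and those of Cxcl10 because it belongs to the interferon-induced ligands described further on. Capitals mark matches to the NF-kB consensus on either strand and, in Cxcl10, also 1 match to the interferon-stimulated response element (GAAA, any pair of bases, GAAA), which comes first, and 1 to the AP-1 motif TGANTCA, which comes last. Where matches overlap, they are run together. The windows are from the RefSeq rat assembly GRCr8, are read 5′ to 3′ on the strand of the gene, and end at the base before the start site. They lie at chr14:17479322-17479571 on the minus strand for Cxcl1, chr14:17467256-17467505 on the minus strand for Cxcl2, chr14:17596418-17596667 on the minus strand for Cxcl5, and chr14:15988816-15989065 on the plus strand for Cxcl10.
Cxcl1: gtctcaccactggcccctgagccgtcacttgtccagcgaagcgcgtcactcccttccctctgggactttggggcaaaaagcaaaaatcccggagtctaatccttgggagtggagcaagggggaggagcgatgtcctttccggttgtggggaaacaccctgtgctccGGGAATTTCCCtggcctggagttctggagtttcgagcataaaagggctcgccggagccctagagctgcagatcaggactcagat
Cxcl2: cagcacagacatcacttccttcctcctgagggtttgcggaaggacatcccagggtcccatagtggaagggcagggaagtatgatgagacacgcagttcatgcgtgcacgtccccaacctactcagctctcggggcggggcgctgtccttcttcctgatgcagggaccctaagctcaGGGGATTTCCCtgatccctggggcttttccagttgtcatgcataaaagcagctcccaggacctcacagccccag
Cxcl5: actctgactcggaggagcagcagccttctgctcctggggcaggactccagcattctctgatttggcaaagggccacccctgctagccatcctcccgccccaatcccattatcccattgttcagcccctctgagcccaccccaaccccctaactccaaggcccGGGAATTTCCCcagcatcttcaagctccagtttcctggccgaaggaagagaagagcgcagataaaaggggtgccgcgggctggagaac
Cxcl10: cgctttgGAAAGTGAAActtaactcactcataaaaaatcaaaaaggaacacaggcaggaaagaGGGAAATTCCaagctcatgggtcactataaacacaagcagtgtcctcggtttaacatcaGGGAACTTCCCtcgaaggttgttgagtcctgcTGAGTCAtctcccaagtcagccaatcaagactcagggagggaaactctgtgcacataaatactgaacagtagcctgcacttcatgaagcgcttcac

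In the single stretch of capitals of Cxcl1, Cxcl2 and Cxcl5, 2 matches overlapped, beginning at positions -84, -74 and -88 from the start of the gene. Cxcl10 held a match at -187 and an overlapping pair from -128. Of the 52 genes, 40 have a window from 250 bases before to 50 bases after the start (Ccl2 and 11 others have none). The NF-kB consensus was matched in 9 of the 40, or 22.5%, among them 8 of 28 ligands and 1 of 12 receptors, while 7.51% of all 33469 windows of this length held it. The other 5 genes with a match were Cxcl11, Ccl7, Ccl9, Ccl20 and Ccr3. The interferon element was matched in 5% of the 40 against 3.92% of all windows, and the AP-1 motif in 17.5% against 7.33%. A match is a run of letters and not a measured binding site.

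Summed over the 34 ligands, the level differed little between tumors, from 2379 FPKM in B14 to 3059 FPKM in A6. As a share of all FPKM of the tumor, however, the sum was lowest in A6 (0.298%) and highest in A12 (0.385%). What filled this sum differed between A12 and B14 and the rest. Ccl6, a rodent CC chemokine that signals through Ccr1, was the most abundant ligand in A1, A6, B5 and B9 and made up 39.7% to 46.7% of the ligand sum there, against 4.75% in A12 and 8.70% in B14. Cxcl5, an attractant of neutrophils, took its place with 70.5% of the sum in A12 and 48.5% in B14, compared with 14.6% in B5, 15.0% in B9 and 4.68% in A1.

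**Figure D1:**
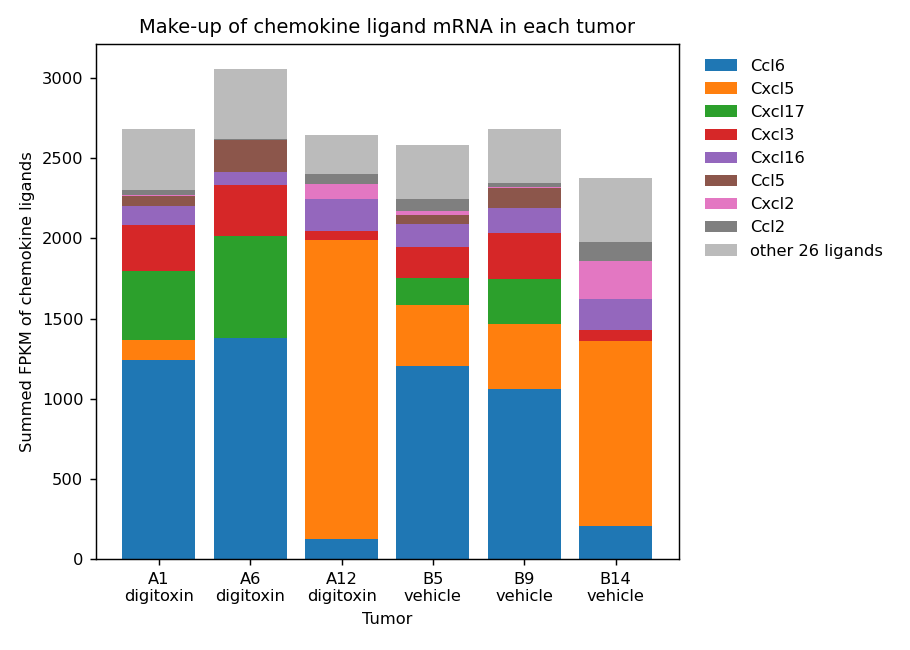
Stacked bars give the summed FPKM of the 34 chemokine ligands in each of the 6 tumors, split into the 8 ligands of highest mean and all others. The bars are of similar height (2379 to 3059 FPKM), with Ccl6 the largest piece in A1, A6, B5 and B9 and Cxcl5 the largest piece in A12 and B14.

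Of the 52 genes, 42 (31 ligands and 11 receptors) averaged 1 FPKM or more and were tested, and 26 averaged 10 FPKM or more. The 6 of highest mean were Ccl6 at 871, Cxcl5 at 654, Cxcl17 at 251, Cxcl3 at 202, Cxcl16 at 148 and Cxcr7 at 105 FPKM. The 10 genes below the minimum were the ligands Ccl25, Ccl26 and Ccl28 and the receptors Ccr10, Ccr1l1, Ccr3, Ccr4, Ccr6, Ccr9 and Xcr1. None of these exceeded 1.92 FPKM, the level of Ccl26 in A6, and Ccl25 was listed at 0 in all 6 tumors. At 1 FPKM or more, 40 to 43 of the 52 genes were detected in A1, A6, B5 and B9, but 32 in A12 and 34 in B14. Of all symbols, 58.1% in A12 and 59.3% in B14 reached this level, against 58.3% in A6 and 61.4% to 63.9% in A1, B5 and B9.

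**Figure D2:**
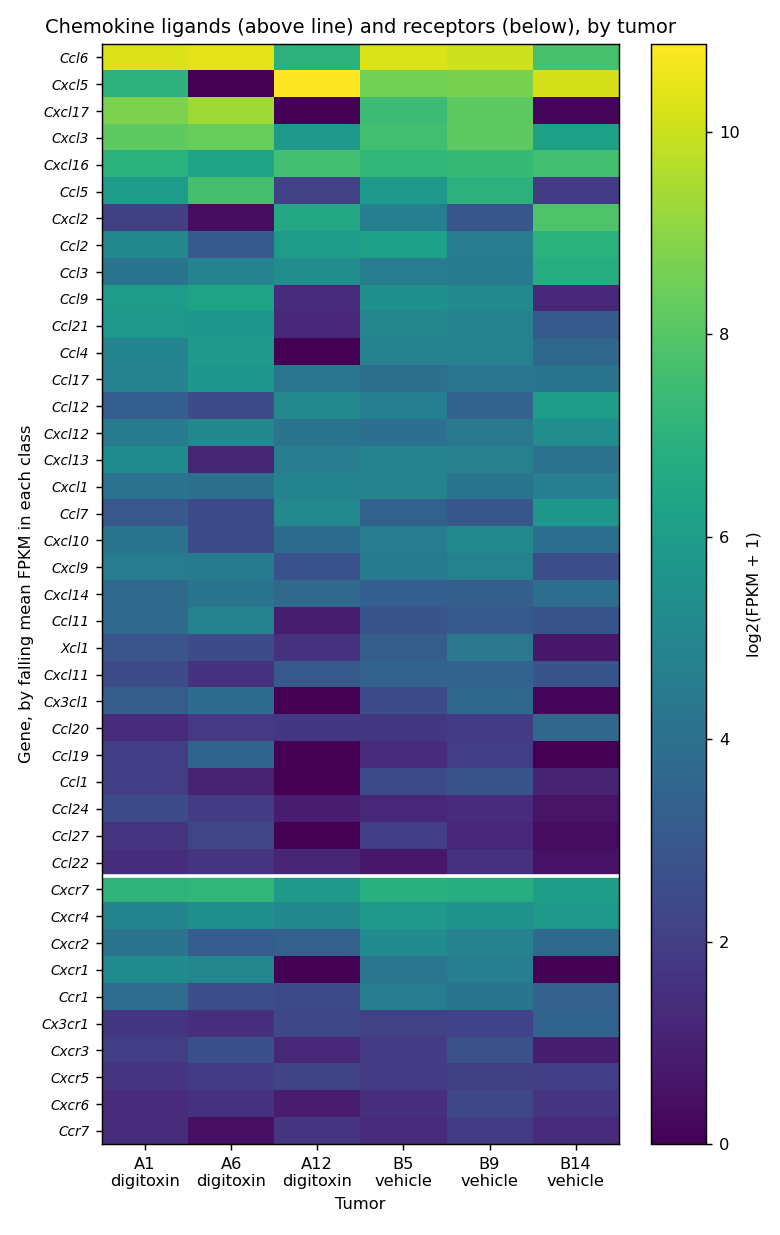
Each row of the heat map is 1 of 41 tested genes, with 31 ligands above the white line and 10 receptors below it, and each column is 1 tumor. Colour gives log2(FPKM + 1), and the columns of A12 and B14 are dark at Cxcl17 (0 and 0.143 FPKM) and bright at Cxcl5 (1864 and 1153 FPKM).

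Among the 42 tested genes, 17 were lower in both A12 and B14 than in each of the other 4 tumors, beside 29.3% of all 10742 rows tested, and 7 were higher in both, beside 30.1%. The 7 were Cxcl5, Cxcl16, Cxcl2, Ccl3, Ccl12, Ccl7 and Cx3cr1. As a ratio, the gap was wide for Cxcl17, a mucosal chemokine of the airways. It was at 425 FPKM in A1, 634 FPKM in A6, 278 FPKM in B9 and 172 FPKM in B5, whereas B14 had 0.143 FPKM and A12 was listed at 0. The alveolar lung markers were high and low in the same tumors, and their part in these levels was not tested.

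The central comparison asked whether these mRNAs differed between digitoxin-treated and vehicle tumors. With limma on log2(FPKM + 1), 0 of the 42 reached an adjusted p under 0.05 (lowest adjusted p 0.926). Of all 10742 rows, 0% reached it, and 36 rows had an unadjusted p under 0.05. Cxcr4 was the only gene of the 42 with an unadjusted p under 0.05, beside 0.335% of all rows tested (0.270% lower), and also the only one whose groups did not overlap, beside 4.16% of all rows (3.26% lower and 0.903% higher). The mean was lower with digitoxin for 26 of the 42 genes and higher for 16, and 64.9% of all rows were lower. Over the 42, the median log2 fold change was -0.30, and over all rows it was -0.16. A log2 fold change of -1 or below was met by 9 of the 42 (6.36% of all rows) and one of 1 or above by 0 (0.996%). Receptors had a median log2 fold change of -0.61, with 8 of 11 lower. That of ligands was -0.098, with 18 of 31 lower, but it was 0.21 without A12 and B14 and 0.098 with median-of-ratios scaling of the tumors. For a single gene, exact permutation of 3 against 3 tumors gives no p under 0.1.

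Without A12 and B14, with 2 tumors a group, 10 of the 42 had an unadjusted p under 0.05, against 11.1% of all rows. The 5 lower with digitoxin (7.20% of all rows) were Cxcl2, Cxcl5, Cxcl10, Cxcl11 and Cxcr2, and the 5 higher (3.88%) were Ccl9, Ccl11, Ccl17, Ccl21 and Cxcl17. None of these passed an adjusted p under 0.05 with limma (smallest adjusted p 0.391), while 2 rows of all rows, or 0.0186%, did. In the same 4 tumors the alveolar lung markers had a median log2 fold change of 1.08 and the markers of dividing cells one of -1.93, and their part in these differences was not tested. The groups did not overlap for 28 of the 42, beside 57.3% of all rows.

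With the replicate number as a block, which pairs A1 with B5, A6 with B9 and A12 with B14, 7 of the 42 had an unadjusted p under 0.05, against 4.16% of all rows. All 7 were lower with digitoxin (2.84% of all rows), among them Cxcl2, Ccl2, Ccl12, Ccl1, Ccr1 and Cxcr2. The smallest adjusted p in that limma fit was 0.638, so no gene passed the threshold of 0.05. What a shared number stands for is not stated in the sources, so this pairing, and any order within a number given below, may be arbitrary.

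**Figure D3:**
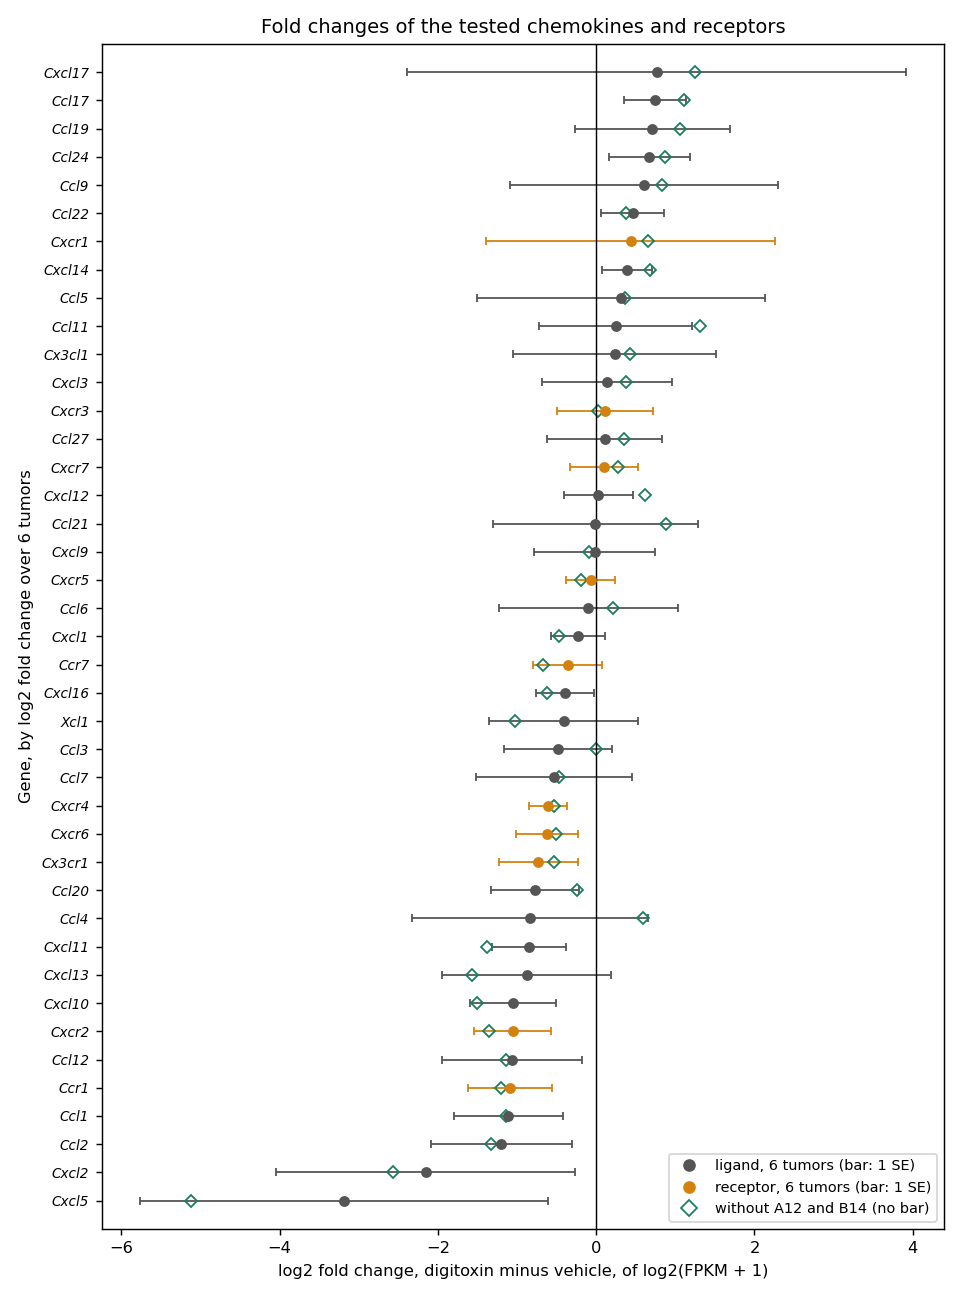
Filled points give the log2 fold change (digitoxin minus vehicle, on log2(FPKM + 1)) of 41 tested genes over all 6 tumors, with bars of 1 SE from limma, ligands in grey and receptors in orange. Open diamonds give the same without A12 and B14. The longest bars are those of Cxcl17 (3.15) and Cxcl5 (2.58), and the diamonds of Ccl4 (0.58) and Ccl6 (0.21) lie on the other side of 0 from their points.

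The neutrophil attractants Cxcl1, Cxcl2, Cxcl3 and Cxcl5 bind Cxcr2 and, in part, Cxcr1. Cxcl1, whose protein was measured in serum for the choice of rats, was at 16.7, 15.0 and 28.9 FPKM in A1, A6 and A12 and at 28.3, 17.6 and 24.0 FPKM in B5, B9 and B14. The groups overlapped, with A12 the highest tumor of all. Means were 20.2 ± 7.6 FPKM with digitoxin and 23.3 ± 5.38 FPKM with vehicle (SD, n = 3), and the log2 fold change was -0.23 with a standard error of 0.34. Cxcl1 thus differed by less than its standard error.

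Cxcl2, a close relative of Cxcl1, varied far more. It was at 3.14, 0.311 and 93.7 FPKM in A1, A6 and A12 and at 24.6, 6.50 and 234 FPKM in B5, B9 and B14. The groups overlapped because A12 exceeded B5 and B9, while each digitoxin-treated tumor was below the vehicle tumor of the same number. Its log2 fold change was -2.15 with a standard error of 1.89 and an adjusted p of 0.926 from limma. The standard error was 0.36 with the replicate block, with an unadjusted p of 0.000753 and an adjusted p of 0.638. Leaving out 1 tumor moved the log2 fold change to -0.85 without A6, -0.79 without B14, -3.28 without B9 and -3.93 without A12, and without both A12 and B14 it was -2.57 (SE 0.79).

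Cxcl5 was listed at 0 in A6 and was at 126 FPKM in A1 and 1864 FPKM in A12, against 378, 403 and 1153 FPKM in B5, B9 and B14. A12 was above and both other digitoxin-treated tumors were below all vehicle tumors, so the groups overlapped. The log2 fold change of -3.18 (SE 2.58) rested on the 0 of A6, since it was -0.21 without that tumor. Ppbp, a CXC chemokine of platelets on the neighbouring row, was listed at 0 in the same tumor and at 452 FPKM or more in the other 5. Pf4, the platelet chemokine next to Ppbp, was highest in A6, at 255 FPKM.

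Cxcl3 followed the opposite order of tumors. It was at 288, 319 and 55.3 FPKM in A1, A6 and A12 and at 189, 288 and 70.7 FPKM in B5, B9 and B14, so it was lowest in A12 and B14, where Cxcl2 and Cxcl5 were highest. Digitoxin and vehicle tumors differed by 0.13 on the log2 scale (SE 0.82). Its row spans 19254 bp in the table against 1725 bp in RefSeq, and reads of the related Cxcl1, Cxcl2 and Cxcl3 may have been shared between them, so how their levels divide is uncertain. Summed over Cxcl1, Cxcl2, Cxcl3 and Cxcl5, the level was 334 to 715 FPKM in A1, A6, B5 and B9, 2042 FPKM in A12 and 1482 FPKM in B14.

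Of the receptors for these ligands, Cxcr2 was at 17.4, 7.95 and 8.95 FPKM in A1, A6 and A12 and at 36.9, 27.5 and 12.7 FPKM in B5, B9 and B14. A1 exceeded B14, so the groups overlapped, although each digitoxin-treated tumor was below the vehicle tumor of its number. Means were 11.4 ± 5.19 and 25.7 ± 12.2 FPKM (SD, n = 3), with a log2 fold change of -1.06 (SE 0.49, adjusted p 0.926 with limma). Unadjusted p-values were 0.0715 in that fit, 0.0182 with the replicate block and 0.0196 without A12 and B14. In further limma fits they were 0.107 with median-of-ratios scaling, 0.0448 without A1, 0.162 without A6, 0.139 without A12 and 0.221 without B5. Cxcr1 was listed at 0 in both A12 and B14 and was at 36.7, 30.5, 18.1 and 24.2 FPKM in A1, A6, B5 and B9. Over all tumors its log2 fold change was 0.44 (SE 1.83). The row of Cxcr1 covers 1051 bp against 4186 bp for the gene in RefSeq. Of the 10 neutrophil markers, 8 were lower in both A12 and B14 than in each of the others, while Mmp9 was highest in those tumors and Trem1 was highest in B14. S100a8 was among the 8, at 576 and 1308 FPKM, against 5450 to 34402 FPKM in the others, and Csf3r was at 5.24 to 7.44 FPKM in A6, A12 and B14, against 18.4 to 29.2 FPKM in A1, B5 and B9. The summed level of the 10, most of it S100a8 and S100a9, ranged from 1455 to 63199 FPKM with digitoxin and from 3542 to 33274 FPKM with vehicle, and its part in the Cxcr2 values was not tested.

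Cxcl9, Cxcl10 and Cxcl11 are induced by interferons and attract T cells through Cxcr3. Cxcl10 was at 17.3, 4.66 and 13.3 FPKM in A1, A6 and A12 and at 22.7, 34.4 and 14.7 FPKM in B5, B9 and B14. Only A1 reached into the vehicle range, above B14. Means were 11.8 ± 6.47 and 23.9 ± 9.9 FPKM (SD, n = 3), and the log2 fold change was -1.05 (SE 0.54, adjusted p 0.926 with limma), or -0.54 without A6. Cxcl11 was lower on average as well, with a log2 fold change of -0.85 (SE 0.47), or -0.45 without A6 and -1.38 without A12 and B14, and a level between 1.94 FPKM in A6 and 9.95 FPKM in B5. Cxcl9 instead was at 23.2, 21.3 and 5.64 FPKM in A1, A6 and A12 and at 21.3, 26.5 and 5.09 FPKM in B5, B9 and B14. It was low in A12 and B14 of either group, with a log2 fold change of -0.02 (SE 0.76). Their receptor Cxcr3 was at 0.857 to 5.40 FPKM and had a log2 fold change of 0.11 (SE 0.61).

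The monocyte attractants Ccl2, Ccl7 and Ccl12 signal mainly through Ccr2. Ccl2 was at 32.9, 7.45 and 61.7 FPKM in A1, A6 and A12 and at 72.6, 23.5 and 120 FPKM in B5, B9 and B14. The groups overlapped, and each digitoxin-treated tumor lay below the vehicle tumor of the same number, but A1 was above B9. The sources do not say what a number shares. The log2 fold change was -1.20 with a standard error of 0.89, which became 0.25 with the replicate block (unadjusted p 0.0022, adjusted p 0.638 with limma). Without A6 the log2 fold change was -0.38.

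Ccl12, a rodent relative of Ccl2, was at 8.44, 4.83 and 33.7 FPKM in A1, A6 and A12 and at 24.0, 9.65 and 64.5 FPKM in B5, B9 and B14. The same order within each number was seen, with A12 and B14 highest in their groups. For Ccl12 the log2 fold change was -1.06 (SE 0.89), and its unadjusted p was 0.275 and, with the replicate block, 0.00886. It was -0.40 without B14, -0.52 without A6, -1.71 without B9 and -1.81 without A12. Ccl7 was at 6.83, 4.26 and 33.5 FPKM in A1, A6 and A12 and at 9.44, 6.59 and 53.1 FPKM in B5, B9 and B14, with a log2 fold change of -0.53 (SE 0.99) that was 0.33 without B14. All 3 mRNAs thus had their highest level of each group in A12 or B14.

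Ccl3, Ccl4 and Ccl5 are inflammatory CC chemokines that attract monocytes and T cells. Ccl3 was at 17.3, 27.2 and 39.5 FPKM in A1, A6 and A12 and at 23.4, 20.4 and 108 FPKM in B5, B9 and B14, so B14 alone lay far above the rest. Its log2 fold change was -0.48 (SE 0.68) and was 0.27 without B14. Ccl4 was at 29.0 FPKM in A1 and 56.1 FPKM in A6, listed at 0 in A12, and at 27.1, 26.1 and 11.8 FPKM in B5, B9 and B14. Its fold change of -0.83 on the log2 scale rested on A12, since it was 0.96 without that tumor. Ccl5, which T cells make in quantity, was at 60.6, 203 and 3.27 FPKM in A1, A6 and A12 and at 58.7, 127 and 2.69 FPKM in B5, B9 and B14. It was low in A12 and B14, as was the sum of the 12 markers of T and NK cells, at 24.6 and 38.2 FPKM against 107 to 180 FPKM in the other tumors, and the part of these cells was not tested. Ccl5 had a log2 fold change of 0.31 (SE 1.82).

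Ccl6 and Ccl9 are rodent chemokines that bind Ccr1. Ccl6 was at 1244, 1382 and 126 FPKM in A1, A6 and A12 and at 1205, 1064 and 207 FPKM in B5, B9 and B14. The groups overlapped, and the log2 fold change was -0.10 (SE 1.13), or 0.21 (SE 0.33) without A12 and B14. Ccl9 was at 62.2, 78.7 and 1.60 FPKM in A1, A6 and A12 and at 43.3, 35.0 and 1.34 FPKM in B5, B9 and B14. Both were low in A12 and B14, and Ccl9 had a log2 fold change of 0.61 (SE 1.69) over all tumors and of 0.83 (SE 0.27) in the 4 others. Only in those 4 was its unadjusted p under 0.05, at 0.0215.

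Ccr1, the receptor of Ccl6 and Ccl9, was lower on average with digitoxin. It was at 13.7, 4.86 and 4.49 FPKM in A1, A6 and A12 and at 23.3, 17.7 and 9.11 FPKM in B5, B9 and B14. A1 exceeded B14, and each digitoxin-treated tumor was below the vehicle tumor of its number. Means were 7.70 ± 5.24 and 16.7 ± 7.16 FPKM (SD, n = 3), with a log2 fold change of -1.09 (SE 0.53, adjusted p 0.926 with limma) and an unadjusted p of 0.084, or 0.0175 with the replicate block. In further limma fits the unadjusted p was 0.123 with median-of-ratios scaling, 0.025 without A1, 0.184 without A6, 0.187 without A12, 0.239 without B5 and 0.186 without B9. The macrophage marker Mpeg1 had an unadjusted p under 0.05 over all 6 tumors without a block, where Ccr1 did not, with a log2 fold change of -1.59 (SE 0.58), and 9 of the 11 macrophage markers were lower with digitoxin (median log2 fold change -0.62), beside 64.9% of all rows. Without A12 and B14 the median of the macrophage markers was -0.50, with 7 of 11 below 0 and Cd68 (0.65), Csf1r (0.22), Mrc1 (0.46) and Marco (1.28) above it, and Mpeg1 was at -1.67 with an unadjusted p of 0.062. Their summed level was 583 to 917 FPKM with digitoxin and 651 to 1437 FPKM with vehicle, and their part in the Ccr1 values was not tested.

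The groups of Cxcr4 did not overlap. This receptor of Cxcl12 was at 29.2, 42.1 and 32.9 FPKM in A1, A6 and A12 and at 58.4, 45.2 and 56.0 FPKM in B5, B9 and B14. Every vehicle tumor was above every digitoxin-treated tumor, though A6 and B9 lay close together. Means were 34.7 ± 6.61 and 53.2 ± 7.01 FPKM (SD, n = 3). The log2 fold change was -0.61 (SE 0.23), and the unadjusted p of limma was 0.0389, with an adjusted p of 0.926. It stayed lower with digitoxin in all 12 other fits, with log2 fold changes of -0.75 to -0.42. The unadjusted p was over 0.05 in 8 of these 12: 0.141 without A1, 0.0717 without A12, 0.122 without B5, 0.108 without B14, 0.127 without A12 and B14, 0.0583 with the replicate block, 0.0578 without a trend in the variance and 0.208 with median-of-ratios scaling, which raised the median of all rows by 0.18.

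Cxcl12, the ligand of Cxcr4 and a product of stromal cells, was at 20.8, 33.1 and 16.9 FPKM in A1, A6 and A12 and at 14.4, 19.4 and 38.9 FPKM in B5, B9 and B14. The groups overlapped over most of their range, with a log2 fold change of 0.03 (SE 0.44). Cxcr7, which binds Cxcl12 and removes it, was at 134, 142 and 56.1 FPKM in A1, A6 and A12 and at 119, 108 and 67.4 FPKM in B5, B9 and B14. It was the most abundant receptor by mean and was lowest in A12 and B14. Its log2 fold change was 0.10 (SE 0.43).

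**Figure D4:**
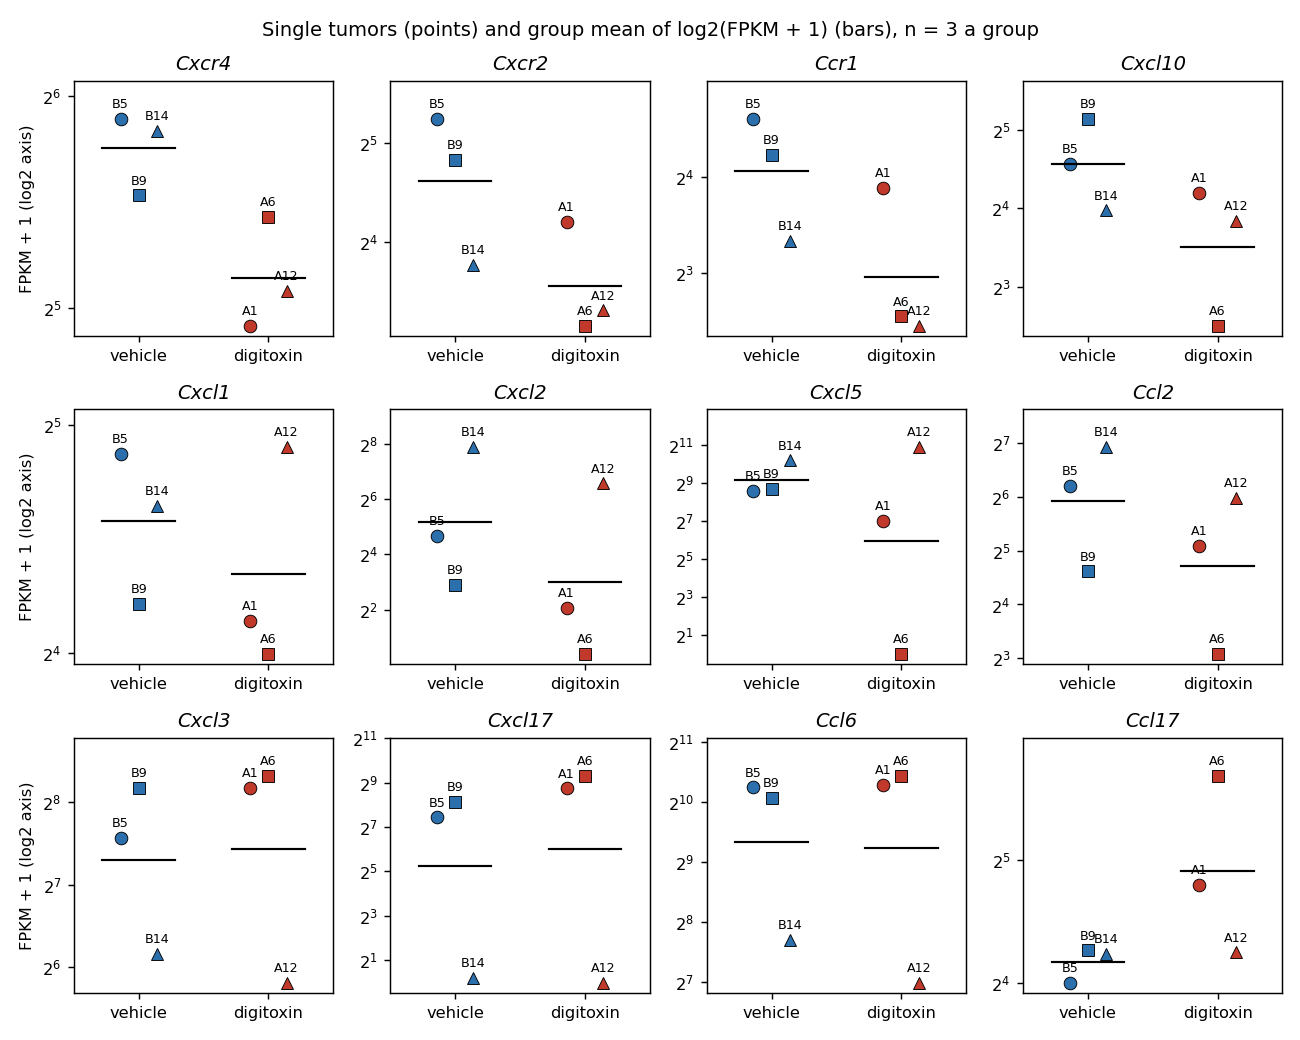
Points are single tumors (vehicle blue, digitoxin red) for 12 chemokines and receptors, with FPKM + 1 on a log2 axis that differs between panels, and the black bars mark the group mean of log2(FPKM + 1). The groups are separate for Cxcr4, while for Cxcl2, Cxcl17 and Ccl6 the points of A12 and B14 lie far from the others of their groups, and for Cxcl5 that of A6, listed at 0, is the lowest.

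Among the other chemokines of lymphoid tissue, Ccl21 draws cells that carry Ccr7 and Cxcl13 draws B cells through Cxcr5. Cxcl13 was at 38.3, 1.19 and 22.6 FPKM in A1, A6 and A12 and at 27.9, 25.4 and 15.5 FPKM in B5, B9 and B14. A6 was far below all others and A1 above all others. The log2 fold change of -0.88 (SE 1.07) turned to 0.39 without A6. Ccl21 was at 53.9, 50.6 and 1.41 FPKM in A1, A6 and A12 and at 29.8, 26.1 and 7.37 FPKM in B5, B9 and B14. It had a log2 fold change of -0.01 (SE 1.30) over all tumors and of 0.88 (SE 0.26, unadjusted p 0.0139) without A12 and B14. Ccl19, Ccl20, Ccl27, Ccr7 and Cxcr5 had means between 1.63 and 3.78 FPKM, and 3 of these 5 were lower with digitoxin.

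Cxcl16 and Cxcl14 showed less spread. Cxcl16, a membrane-bound chemokine and the ligand of Cxcr6, was at 122, 76.7 and 198 FPKM in A1, A6 and A12 and at 146, 154 and 189 FPKM in B5, B9 and B14. A12 was highest and A6 lowest, so the groups overlapped, with a log2 fold change of -0.39 (SE 0.37). Cxcl14 was at 12.3, 16.9 and 12.5 FPKM in A1, A6 and A12 and at 8.55, 8.82 and 14.3 FPKM in B5, B9 and B14, with a log2 fold change of 0.39 (SE 0.31). Only B14 of the vehicle tumors reached the digitoxin range. For Cxcl17, the log2 fold change was 0.77 (SE 3.15) over all tumors and 1.24 (SE 0.35, unadjusted p 0.0115) without A12 and B14, and 8 of the 11 alveolar lung markers were higher in both A1 and A6 than in both B5 and B9 (17.2% of all rows), and their part in the Cxcl17 values was not tested.

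Ccl17, Ccl22, Ccl11 and Ccl24 attract type 2 helper T cells or eosinophils, and all 4 had a higher mean log2 level with digitoxin. Ccl17, a ligand of Ccr4, was at 26.8, 50.5 and 18.0 FPKM in A1, A6 and A12 and at 15.0, 18.2 and 17.9 FPKM in B5, B9 and B14. A1 and A6 were above all other tumors, while A12 lay within the vehicle range. Its log2 fold change was 0.74 (SE 0.40, adjusted p 0.926 with limma) and was 0.35 without A6. Ccl11 was highest in A6 at 27.2 FPKM and lowest in A12 at 0.884 FPKM, with a log2 fold change of 0.24 (SE 0.97) that was -0.59 without A6, 1.36 without A12, and 1.31 (unadjusted p 0.032) without A12 and B14. Ccl22 and Ccl24 had means of 1.33 and 1.89 FPKM and log2 fold changes of 0.46 (SE 0.40) and 0.67 (SE 0.51). Leaving out 1 tumor gave 0.26 (without B14) to 0.77 (without B9) for Ccl22. For Ccl24 it gave 0.32 (without A1) to 1.11 (without A12). Ccl1, the ligand of Ccr8, was lower instead, at -1.11 (SE 0.69), between a listed 0 in A12 and 6.15 FPKM in B9.

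For the other genes described above and in the next paragraph, leaving out A12 and B14 gave these log2 fold changes. Among the neutrophil attractants and their receptors, Cxcl1 was at -0.47, Cxcl3 at 0.38, Cxcl5 at -5.12 (with the listed 0 of A6), Cxcr1 at 0.65 and Cxcr2 at -1.36. Of the interferon-induced ligands, Cxcl9 was at -0.09 and Cxcl10 at -1.51. The CC ligands Ccl2, Ccl12, Ccl7, Ccl3, Ccl4 and Ccl5 were at -1.33, -1.14, -0.47, -0.01, 0.58 and 0.36, and Ccl17 was at 1.11. Ccr1 was at -1.20, Cxcr4 at -0.54 and Cxcr7 at 0.28, with Cxcl12 at 0.62, Cxcl13 at -1.57, Cxcl14 at 0.67 and Cxcl16 at -0.62. Of the genes given by range, Xcl1 was at -1.03, Cx3cl1 at 0.43, Cx3cr1 at -0.53, Cxcr6 at -0.51, Cxcr3 at 0.02, Ccl1 at -1.14, Ccl22 at 0.38 and Ccl24 at 0.86. Among all 42 tested genes, 3 (Ccl4, Ccl6 and Ccl21) had the opposite sign to that over 6 tumors.

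Of the remaining genes with a mean of 1 FPKM or more, Xcl1, Cx3cl1, Cx3cr1 and Cxcr6 had log2 fold changes of -0.41 (SE 0.95), 0.23 (SE 1.29), -0.73 (SE 0.50) and -0.62 (SE 0.39). Leaving out 1 tumor gave -0.98 (without A12) to -0.28 (without B14) for Cx3cr1. For Cxcr6 it gave -0.80 (without B5) to -0.36 (without B9). Cx3cr1, the receptor of Cx3cl1, was highest in B14 at 10.4 FPKM. Cx3cl1 itself was at 4.53 to 13.1 FPKM in A1, A6, B5 and B9, at 0.117 FPKM in B14 and listed at 0 in A12.

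Other genes of the pathway were read from lists of signalling and regulatory genes. Of 34 genes that act downstream of chemokine receptors, 24 were lower and 10 higher with digitoxin (64.9% of all rows were lower), with a median log2 fold change of -0.15 beside -0.16 for all rows. An unadjusted p under 0.05 was met by 2 of them, both lower (0.335% of all rows, 0.270% lower). Rgs2, a regulator that ends G protein signalling, was at 38.2, 25.1 and 24.7 FPKM in A1, A6 and A12 and at 56.4, 44.7 and 48.2 FPKM in B5, B9 and B14. Rgs18, of the same family, was at 2.69, 1.01 and 1.64 FPKM against 5.77, 3.79 and 5.94 FPKM. The groups did not overlap for either gene (3.26% of all rows, lower with digitoxin), with log2 fold changes of -0.77 (SE 0.26) and -1.17 (SE 0.37) and an adjusted p of 0.926 in limma. Without A12 and B14 these were -0.68 and -1.06, each with an unadjusted p of 0.073. The groups of Jak2, a tyrosine kinase, did not overlap either, with a log2 fold change of -0.82 (SE 0.43). Its unadjusted p in limma was 0.104, and without A12 and B14 its log2 fold change was -1.08. Of the 11 inducers of chemokines in the table, 7 were tested, 4 lower and 3 higher. Il1b was at 55.1 to 217 FPKM with digitoxin and 95.7 to 114 FPKM with vehicle, and Il6, whose protein was used with CINC-1 to choose the rats, did not exceed 1.62 FPKM in any tumor. Of the 8 atypical receptors and chemokines under other symbols in the table, 7 were tested, 4 lower and 3 higher.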

How the data were processed

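Messenger RNA was measured in 6 rat tumors, 1 library per rat, as described by the labels and the study's methods. Single reads of TruSeq libraries were processed by the authors with CASAVA, FastQC, Bowtie 2, TopHat 2 and Cufflinks, and they deposited 1 table of FPKM with a column per tumor. The submitters' processing notes name the build hg19, a human build, while the table holds rat symbols, so the build is not settled, and only the order and span of rows are used, with no coordinates from the table. Every column of the table was matched to a tumor, and 0 columns were left out. Reads were not used, so depth is unknown, and no counting error can be given. The p-values measure the spread between these rats.

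The comparison of digitoxin with vehicle used limma 3.58.1 under R 4.3.3 (lmFit, then eBayes with a trend). The input was log2(FPKM + 1), scaled as deposited, of 10742 rows averaging 1 FPKM or more. Tests were two-sided, with Benjamini-Hochberg adjustment over all 10742 rows. Fold changes on this scale understate the change of low mRNAs. The study's methods name Cuffdiff for its own differential analysis, which was not repeated. Tables and figures were made with matplotlib 3.10.9, pandas 2.3.3 and numpy 2.4.6 under Python 3.11.15. Values in every tumor are given for genes with a mean of at least 10 FPKM, an unadjusted p under 0.05 or groups that do not overlap, and for Cxcl1, Cxcl2, Cxcl5, Cxcl13, Ccl2, Cxcr2 and Ccr1, while other genes are given by range and count. Marker genes and Ppbp, Pf4, Rgs2, Rgs18, Jak2, Il1b and Il6 were picked from the lists after their values were seen. Some results on single genes are not reported here, though the counts include them. The members, gene lists and alternatives were chosen with earlier results of these data known. On simulated data for the 10742 rows, 0, 69 and 154 of 200 genes changed by 1, 2 and 4 on the log2 scale were recovered.

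After subtracting group means, r across genes between tumors of the same number was 0.43 (A1 and B5), 0.61 (A6 and B9) and 0.87 (A12 and B14), all above 0.1, so the numbers were used as a block in an alternative fit. Nothing in the sources says what a number shares, and r was as high for the crossed pairs A1 and B9 (0.65) and B5 and A6 (0.61). The check would thus have passed with A1 and A6 exchanged, and it does not support pairing these tumors by number. Further alternatives were median-of-ratios scaling, a pseudocount of 0.1, all rows without a filter, eBayes with no trend, each tumor omitted in turn, both A12 and B14 left out, and ratios of group means.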

Additional observations from a re-analysis of the deposited data

How the results depend on the processing

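Depth is unknown, no counting error can be given, and 3 tumors a group with A12 and B14 apart limit what the tests can call. With limma, the count of all rows past an adjusted p under 0.05 was 2 instead of 0 without A12 and B14, and 0 to 2 when 1 tumor was left out (2 without B14). At an unadjusted p under 0.05 the 36 rows became 130 with no filter, 447 with the replicate block, 1190 without A12 and B14, and 12 to 2115 with 1 tumor left out (13 without A6, 12 without B9, 19 without B5 and 2115 without A12). For the chemokines and receptors, the count of 1 became 7 with the replicate block, 10 without A12 and B14, 0 with median-of-ratios scaling, 0 without a trend, and 0 to 8 with 1 tumor left out (8 without A12, 0 without B5, 2 without A1 and 2 without B14). The cause of these changes was not tested. With complete pairs the replicate block leaves each log2 fold change as it was and alters only its error.

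The median log2 fold change of the ligands was 0.098 with median-of-ratios scaling, 0.21 without A12 and B14, and -0.60 (without B14) to 0.46 (without A12) with 1 tumor left out. That of the receptors was -0.69 with a pseudocount of 0.1, -0.42 with median-of-ratios scaling, and -0.58 to -0.36 with 1 tumor left out. On average 38.7 of the 52 genes were detected at 1 FPKM, 47.3 above 0 FPKM and 26.5 at 5 FPKM. Log2 fold changes of the 26 named genes changed sign in 3 with median-of-ratios scaling (Ccl21 0.19, Ccl6 0.098, Cxcl9 0.17), in 3 without A12 and B14 (Ccl21 0.88, Ccl4 0.58, Ccl6 0.21) and in 5 as ratios of group means, which take a listed 0 as 0 (Ccl21 0.74, Ccl4 0.39, Ccl6 0.15, Cxcl12 -0.039, Cxcl5 0.040). With 1 tumor left out the ranges that crossed 0 were -0.78 to 1.48 for Ccl21, -0.90 to 0.27 for Ccl3, -1.96 to 0.96 for Ccl4, -1.21 to 1.88 for Ccl5, -0.91 to 1.03 for Ccl6, -1.34 to 0.33 for Ccl7, -0.76 to 2.20 for Ccl9, -0.27 to 0.42 for Cxcl12, -1.70 to 0.39 for Cxcl13, -1.76 to 3.77 for Cxcl17, -0.44 to 0.95 for Cxcl3, -0.70 to 0.58 for Cxcl9, -1.05 to 2.14 for Cxcr1 and -0.15 to 0.53 for Cxcr7. The other 12 named genes kept their direction, from -1.81 to -0.40 for Ccl12, 0.35 to 1.07 for Ccl17, -1.85 to -0.38 for Ccl2, -1.55 to -0.82 for Ccr1, -0.51 to -0.055 for Cxcl1, -1.39 to -0.54 for Cxcl10, 0.25 to 0.61 for Cxcl14, -0.74 to -0.057 for Cxcl16, -3.93 to -0.79 for Cxcl2, -5.64 to -0.21 for Cxcl5, -1.48 to -0.74 for Cxcr2 and -0.75 to -0.50 for Cxcr4. Among genes given by range, those of Ccl11, Ccl19, Ccl27, Cx3cl1, Cxcr3, Cxcr5 and Xcl1 crossed 0.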
